A study of Mus musculus with 24 samples.

Results

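*Meg3*, *Rian* and *Mirg* are the noncoding RNAs that the *Dlk1-Dio3* imprinted region of mouse chromosome 12 expresses from the maternal allele. They are 3 of the 34745 genes in the expression table, and they were chosen by name with the difference between the genotypes in these embryos already known, so that difference is given here as a description, with no p-value and with counts of calls only beside those of all genes. RNA was sequenced from 12 whole hybrid 129/DBA embryos at embryonic day 13.5. Of these, 6 were *Zfp57*-/+ (M-Z+) and 6 were *Zfp57*-/- (M-Z-). By the study's methods both genotypes came from *Zfp57*-/- 129 females crossed with *Zfp57*+/- males mainly on the DBA/2J background, so all 12 lacked maternal *Zfp57* and the comparison is of embryos with and without the zygotic gene. The sex of these embryos is not in the labels, and no embryo with maternal *Zfp57* was sequenced for RNA in the samples analysed here.

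ZFP57 is a KRAB zinc finger protein that binds methylated imprinting control regions and helps to keep their methylation after fertilisation. At the *Dlk1-Dio3* region the control region is methylated on the paternal chromosome, which expresses the protein-coding genes *Dlk1*, *Rtl1* and *Dio3*. The unmethylated maternal chromosome expresses the noncoding RNAs instead. *Meg3* (also called *Gtl2*) is a long noncoding RNA, *Rian* is the host of a cluster of C/D box small nucleolar RNAs, and *Mirg* is the host of many microRNAs.

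In the table *Meg3* (ENSMUSG00000021268) spans chromosome 12 from 109541001 to 109571726, *Rian* (ENSMUSG00000097451) from 109603940 to 109661716 and *Mirg* (ENSMUSG00000097391) from 109729764 to 109749460, positions that match GRCm38. RefSeq (GRCm38.p6) gives promoter windows for all 3, each running from 250 bases before to 50 after a start site. The first *Meg3* window is shown because it alone among the windows of these 3 genes held the hexamer recognised by ZFP57, TGCCGC, read on both strands (GCGGCA on the other strand). The match is in capitals.

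Meg3 promoter, chr12:109540746-109541045, plus strand: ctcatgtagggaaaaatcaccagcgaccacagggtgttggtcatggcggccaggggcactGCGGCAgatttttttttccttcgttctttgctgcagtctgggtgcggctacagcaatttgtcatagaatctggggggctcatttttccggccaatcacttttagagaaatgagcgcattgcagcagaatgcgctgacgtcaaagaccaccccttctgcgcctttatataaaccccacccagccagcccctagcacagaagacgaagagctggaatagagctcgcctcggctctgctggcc

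The hexamer stood in 11.6% of all 32851 RefSeq windows of this length, so its presence is a description and no sign of binding. This *Meg3* window held 13 CpG dinucleotides, the *Mirg* window 10 and the *Rian* window 0, against a median of 7 over all windows. The *Mirg* window (109734731 to 109735030) lies inside the span counted for *Mirg*.

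RefSeq places 35 mature microRNAs inside the 3 spans, all on the plus strand. *Meg3* held 3 of them, *Rian* 6 and *Mirg* 26. The table counts host genes and not mature microRNAs, so no level is given for any of them. The sequences below show 1 microRNA inside each host, followed by the only 2 of the 35 that share a seed (bases 2 to 8, in capitals).

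miR-770-5p (in *Meg3*): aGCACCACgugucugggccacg
miR-370-3p (in *Rian*): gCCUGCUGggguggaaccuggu
miR-410-3p (in *Mirg*): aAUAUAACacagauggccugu
miR-453 (in *Mirg*): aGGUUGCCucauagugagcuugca
miR-496a-5p (in *Mirg*): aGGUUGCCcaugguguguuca

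The libraries held between 12005145 and 19216288 counts. CPM is the count of a gene relative to the TMM-scaled total of its library. *Zfp57* itself averaged 27.1 ± 8.25 CPM in the M-Z+ group and 24.5 ± 4.17 CPM in the M-Z- group (SD, n = 6 each). No source used here states which part of the gene is deleted, so its counts do not check the labels. M-Z+ replicate 6 and M-Z- replicates 5 and 6 stood apart from the other libraries. Their expression leaned more towards long genes: a line of log2 CPM fitted against log2 gene length had a slope of 0.668, 0.66 and 0.67 in these 3, against 0.437 to 0.567 in the others. These embryos also held the highest *Meg3* levels, so values without them are given below.

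All 3 RNAs averaged higher in M-Z- than in M-Z+ embryos, by 1.93-fold for *Meg3*, 1.9-fold for *Rian* and 1.85-fold for *Mirg*. The groups were fully apart for *Rian* only.

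*Rian* was at 560.3, 685, 620, 617, 600 and 785 CPM in M-Z+ replicates 1 to 6. It was at 1227, 1161, 989, 1093, 1512 and 1382 CPM in M-Z- replicates 1 to 6. Every M-Z- embryo was above every M-Z+ embryo. The means were 645 ± 79.7 CPM and 1227 ± 192 CPM (SD, n = 6 each), a fitted log2 fold change of 0.93 (standard error 0.11).

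*Meg3* was at 448, 633, 418, 387, 773 and 1212 CPM in M-Z+ replicates 1 to 6. It was at 915, 831, 484, 817, 2315 and 2099 CPM in M-Z- replicates 1 to 6. The groups overlapped, since 3 M-Z+ embryos were above the lowest M-Z- embryo and only M-Z- replicates 5 and 6 were above the highest M-Z+ embryo. The means were 645 ± 315 CPM and 1244 ± 763 CPM (SD, n = 6 each), with a log2 fold change of 0.95 (standard error 0.39). It was 0.51 without the 3 embryos of steepest slope, and 0.38 with the slope as a covariate over all 12.

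*Mirg* was at 21.7, 26.7, 23.4, 30.1, 36.6 and 28.4 CPM in M-Z+ replicates 1 to 6. It was at 46, 41.5, 30.4, 38.4, 82.7 and 69.8 CPM in M-Z- replicates 1 to 6. Only M-Z+ replicate 5 reached above the lowest M-Z- embryo, replicate 3. The means were 27.8 ± 5.34 CPM and 51.5 ± 20.2 CPM (SD, n = 6 each), with a log2 fold change of 0.89 (standard error 0.22), which was 0.48 without the 3 embryos of steepest slope. *Rian* moved less, to 0.85.

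**Figure D1:**
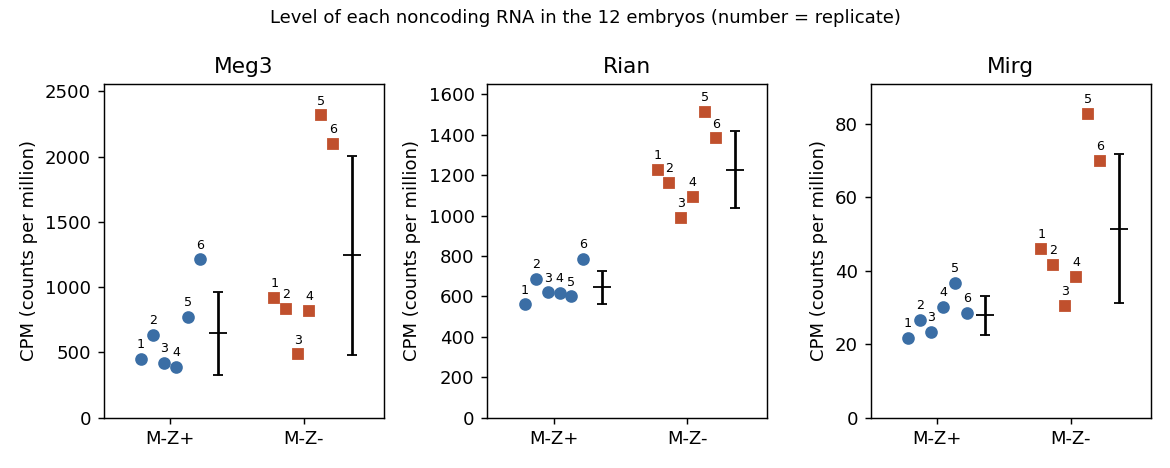
CPM of *Meg3*, *Rian* and *Mirg* (vertical axes, starting at 0) in each M-Z+ (circles) and M-Z- (squares) embryo, with the replicate number beside each point and the mean and SD of 6 embryos at its right. The M-Z- *Rian* values all lie above the M-Z+ values, while *Meg3* and *Mirg* overlap and are highest in M-Z- replicates 5 and 6.

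**Figure D2:**
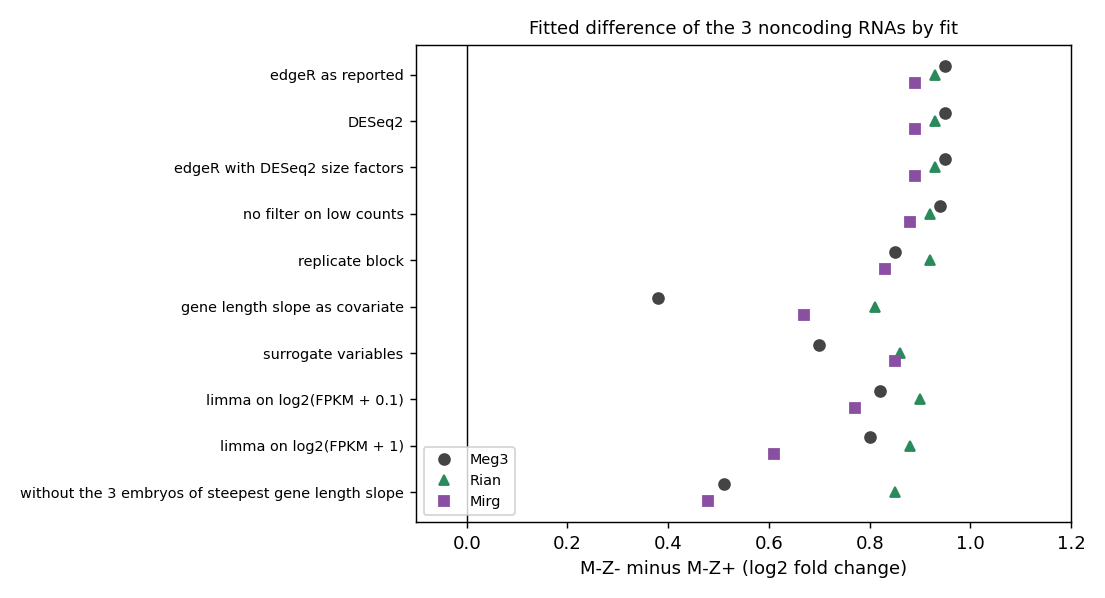
Fitted M-Z- minus M-Z+ log2 fold change (horizontal axis) of the 3 RNAs under 10 fits (rows), without those that leave out a single embryo. In these fits *Rian* stays between 0.81 and 0.93, *Meg3* ranges from 0.38 to 0.95 and *Mirg* from 0.48 to 0.89.

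A gene was called at an adjusted p under 0.05 and a log2 fold change beyond 0.5. Of the 3 RNAs 1 (*Rian*) was called higher by edgeR's quasi-likelihood test, where 0.0437% of the 16026 tested genes were called higher and 0.0811% in either direction. DESeq2 called *Rian* and *Mirg* (0.125% of genes higher), and edgeR with 2 surrogate variables called all 3 (0.144%). All 6 M-Z- values exceeded all 6 M-Z+ values in 0.3% of tested genes. The members were selected on this contrast, so nothing is read from these counts. The median log2 fold change of all tested genes was -0.0072.

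The deposited FPKM values also overlapped between genotypes for *Meg3* and *Mirg* and not for *Rian*. *Meg3* FPKM ranged from 15.4 to 47.6 in M-Z+ and from 18.9 to 88.9 in M-Z- embryos, *Rian* from 24.6 to 34.3 and from 42.8 to 64.5, and *Mirg* from 1.82 to 3.08 and from 2.51 to 6.73. The lengths behind these values exceed the gene's own span for 1178 of 24148 genes. For *Dlk1* the length was 16789 bases, equal to the sum of its distinct exons in GENCODE vM1, where its merged exons cover 5657 bases. Overlapping exons of different isoforms were therefore counted more than once, and the 3 RNAs are not ranked by level here.

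How a ratio between these RNAs varies across embryos does not depend on that length. The *Rian* to *Meg3* FPKM ratio was 1.39, 1.2, 1.65, 1.77, 0.863 and 0.72 in M-Z+ replicates 1 to 6 and 1.49, 1.55, 2.27, 1.49, 0.726 and 0.732 in M-Z- replicates 1 to 6. In both genotypes replicates 5 and 6 had the lowest ratios. Its mean log2 value was 0.27 ± 0.52 in M-Z+ and 0.34 ± 0.66 in M-Z- embryos (SD, n = 6 each). The *Mirg* to *Rian* ratio varied least, 1.69-fold between the lowest and highest M-Z+ embryo and 1.78-fold among M-Z- embryos. For *Rian* to *Meg3* these values were 2.46-fold and 3.13-fold, and for *Mirg* to *Meg3* 3.33-fold and 1.89-fold. The spread of *Meg3* was large for a gene in this table. The SD of its log2 CPM was 0.63 in M-Z+ and 0.87 in M-Z- embryos, above 93.5% and 98.3% of tested genes. For *Rian* it was 0.17 and 0.22, above 28.1% and 55.3%. For *Mirg* it was 0.27 and 0.54, above 57% and 91.8%, so in M-Z- embryos its spread was large too.

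The protein-coding genes of the region moved the opposite way to the means of the 3 RNAs, and all 4 of *Dlk1*, *Rtl1*, *Dio3* and *Begain* were called lower in M-Z- embryos. No M-Z- embryo overlapped an M-Z+ embryo for any of them, an arrangement found in 0.275% of tested genes. *Dlk1*, a transmembrane protein related to Notch ligands, fell from 425 ± 87 to 79.5 ± 15.8 CPM (edgeR adjusted p = 5.44e-06), a log2 fold change of -2.42 ± 0.16 (standard error). *Rtl1*, a retrotransposon-derived gene, had between 164 and 260 counts in each M-Z+ embryo and 0, 1, 0, 0, 1 and 2 in M-Z- replicates 1 to 6 (edgeR adjusted p = 1.58e-08). Its fitted log2 fold change of -7.87 rests on 4 counts in all M-Z- embryos and depends on the prior count. *Dio3*, the enzyme that inactivates thyroid hormone, had between 79 and 141 counts in M-Z+ and between 22 and 27 in M-Z- embryos (log2 fold change -1.80, edgeR adjusted p = 0.000238). *Begain*, at 109032187 to 109068217, fell from 23.3 ± 2.95 to 12.1 ± 0.706 CPM (log2 fold change -0.94, edgeR adjusted p = 0.000238).

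Of the counts between *Dlk1* and *Dio3*, the 3 RNAs held from 64.8% to 86.1% in M-Z+ embryos and from 93.5% to 97.9% in M-Z- embryos. The table has 10 genes there, and the other transcript with at least 10 counts on average, *Gm26945*, lies inside *Rian*. It had between 9 and 148 counts in M-Z+ and between 25 and 289 in M-Z- embryos (edgeR adjusted p = 0.749), a log2 fold change of 1.51 ± 0.73 (standard error). The study's methods name featureCounts with a strand option, for reads aligned by STAR to a genome build other than that of this table. No source used here names the counting program behind this table or its use of strand. Reads of *Gm26945* and *Rian* therefore could not be told apart. Nor could any reads of *Rtl1* and the transcript antisense to it. In an M-Z- embryo, however, at most 2 reads were counted for *Rtl1*, whichever strand they came from. None of the 9 tested genes on the flanks was called (median log2 fold change -0.0027), and the one of largest change, *Wdr25*, was at 9.05 ± 2.89 and 7.42 ± 1.23 CPM (edgeR adjusted p = 0.756).

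Embryos of 1 genotype were then compared with each other, which does not use the difference between genotypes. In M-Z- embryos the 3 RNAs varied together. Pearson's r of log2 CPM was 0.97 for *Meg3* and *Rian*, 0.99 for *Meg3* and *Mirg*, and 0.99 for *Rian* and *Mirg* (n = 6, exact two-sided permutation p = 0.0014 each, the smallest the 720 pairings can give, adjusted p = 0.0028 over 6 relations). Spearman's rho was 1.00 for all 3 pairs (exact permutation p = 0.0028, adjusted p = 0.0056). Without the 2 embryos farthest from the median, r remained 0.93, 0.96 and 0.98. In M-Z+ embryos r was 0.76, 0.44 and 0.18 for the same pairs and rho 0.37, 0.26 and 0.086 (n = 6, exact permutation p of r = 0.076, 0.4 and 0.74, adjusted p of r = 0.11, 0.48 and 0.74, and of rho = 0.75, 0.79 and 0.92). Whether the genotypes differ in these correlations was not tested.

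**Figure D3:**
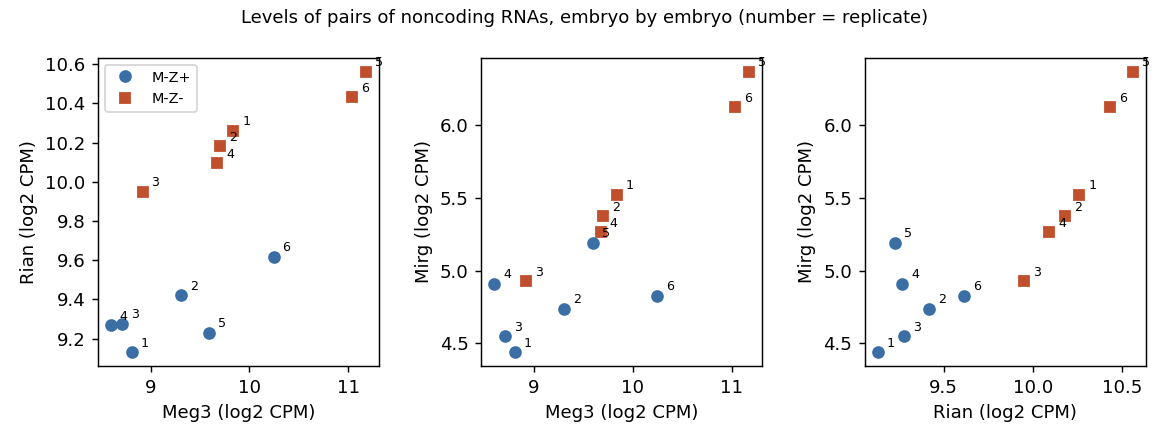
log2 CPM of each pair of the 3 RNAs, 1 point per embryo with its replicate number, M-Z+ as circles and M-Z- as squares. The M-Z- points follow a line in each panel (r of 0.97, 0.99 and 0.99), and the M-Z+ points are more scattered (0.76, 0.44 and 0.18).

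The mean level of neuron markers moved with *Meg3* in both genotypes and with *Rian* and *Mirg* in M-Z- embryos. The mean log2 CPM of 10 neuron genes, among them *Tubb3* and *Dcx*, was correlated with *Meg3* in M-Z+ (r = 0.96, rho = 0.94) and M-Z- embryos (r = 0.98, rho = 0.89), with exact permutation adjusted p of r = 0.011 and 0.013 (n = 6 each, 6 relations). The raw exact p were 0.0028 and 0.0083 for r and 0.017 and 0.033 for rho, with an adjusted p of 0.05 for rho in both genotypes. In M-Z- embryos r was 0.97 for *Rian* and 0.98 for *Mirg* (exact permutation p = 0.0056 each, adjusted p = 0.011 each, n = 6), and in M-Z+ embryos 0.63 and 0.50 (exact permutation p = 0.18 and 0.31, adjusted p = 0.21 and 0.31, n = 6). Without the 2 embryos farthest from the median of the markers, the r of *Meg3* was 0.99 and 0.93. The marker mean was highest in M-Z+ replicate 6 (7.78) and in M-Z- replicates 5 and 6 (7.57 and 7.58). These are also the embryos of steepest gene length slope. The markers varied unequally, with *Tubb3* at 471 ± 23.6 and *Map2* at 165 ± 56.9 CPM in M-Z- embryos (SD, n = 6). Single markers were not tested against the 3 RNAs. The summed level of the list lay between 2181 and 2767 CPM in M-Z+ and between 2092 and 2437 CPM in M-Z- embryos, with a median log2 fold change of -0.15 between genotypes. Of its 10 genes 9 were lower on average in M-Z- embryos (51.7% of all tested genes were), 4 had an unadjusted edgeR p under 0.05 (6.7% of all tested genes did) and 0 were called by edgeR or DESeq2. *Stmn2* was below every M-Z+ embryo in every M-Z- embryo, at 225 ± 15.4 against 259.9 ± 14.5 CPM (edgeR adjusted p = 0.664). In whole embryos fewer cells of a type and less RNA per cell cannot be told apart, and the part of the neuron markers in the levels of the 3 RNAs was not tested. No other marker list was correlated with the 3 RNAs, and genes outside the neuron list also followed *Meg3* closely (below). Whether the relation is particular to neuron markers was therefore not tested.

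The gene length slope was read in the same way. In M-Z- embryos r with the slope was 0.92 for *Meg3*, 0.87 for *Rian* and 0.92 for *Mirg* (n = 6, exact permutation p = 0.028, 0.026 and 0.028, adjusted p = 0.042 each, rho 0.83 each with adjusted p = 0.087). Without M-Z- replicates 5 and 6 it was 0.011, 0.32 and 0.22, so the relation rests on these embryos. In M-Z+ embryos it was 0.85 for *Meg3*, 0.83 for *Rian* and -0.049 for *Mirg* (n = 6, exact permutation p = 0.028, 0.058 and 0.95, adjusted p = 0.042, 0.07 and 0.95), and without replicates 4 and 6 these values were 0.25, 0.96 and 0.017. Without M-Z+ replicate 6 alone r was 0.57 for *Meg3* and 0.44 for *Rian*, so both values depend on which embryos are included. *Mirg* showed no relation with the slope with or without replicates 4 and 6.

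**Figure D4:**
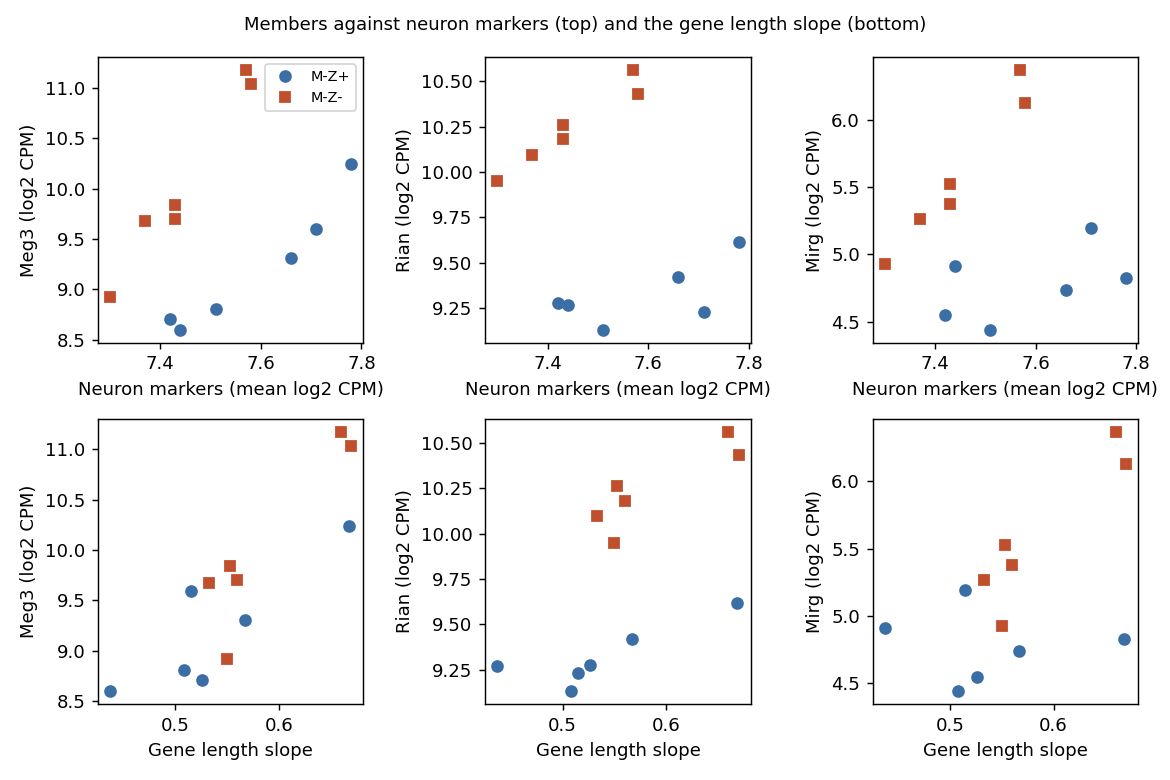
log2 CPM of each RNA (vertical axes) against the mean log2 CPM of the 10 neuron markers (top) and the gene length slope (bottom) in M-Z+ (circles) and M-Z- (squares) embryos. At like neuron marker levels the M-Z- points lie above the M-Z+ points, and in the bottom row 3 embryos, M-Z+ replicate 6 and M-Z- replicates 5 and 6, stand at the right.

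The genes whose levels followed each RNA most closely were found by Pearson's r of log2 CPM centred on the genotype mean, over all 12 embryos. They share these libraries with the RNA, and r is given with no test. For *Meg3* they were *Ccnl2* (0.993), *Clk4* (0.992), *Gm21781* (0.992), *Paxbp1* (0.989) and *Gm42979* (0.984). For *Rian* they were *Adrbk2* (0.971), *Morc3* (0.959), *Tbk1* (0.958), *Gm36989* (0.957) and *Slc18a2* (0.956). For *Mirg* they were *Clasrp* (0.967), *4933439C10Rik* (0.953), *Tspyl2* (0.949), *RP23-325D10.4* (0.942) and *Irx2* (0.933). None of these 15 genes was called between the genotypes by edgeR. *Malat1*, a nuclear noncoding RNA of chromosome 19 that is not imprinted, stood at rank 18 of 16025 for *Meg3* (r = 0.98), ahead of *Rian* at rank 444 (0.89) and *Mirg* at rank 1001 (0.83). Its mean was 275 ± 192 CPM without and 353 ± 255 CPM with loss of zygotic *Zfp57* (edgeR adjusted p = 0.843), a log2 fold change of 0.36 ± 0.49 (standard error). Among the protein-coding genes of the region, r with *Meg3* was -0.92 for *Dlk1* and -0.76 for *Dio3*, and 0.42 for *Rtl1*, which had at most 2 counts in an M-Z- embryo, and 0.36 for *Begain*.

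Imprinted noncoding RNAs of other regions did not pass the test. Of 6 tested, among them *H19* and *Kcnq1ot1*, 0 were called, with a median log2 fold change of 0.41. Only 1 of the 6 had a log2 fold change below 0, against 51.7% of all tested genes. The one of largest change, *Airn*, was at 13.7 ± 6.79 and 21.8 ± 11.4 CPM (edgeR adjusted p = 0.749). *Peg13* had the smallest standard error of the 6, with a log2 fold change of 0.47 ± 0.09 (standard error). It was at 131 ± 5.33 and 181 ± 26.9 CPM, and the groups overlapped (edgeR adjusted p = 0.135). None of 8 other noncoding RNAs was called (median -0.11). The same was true of 8 genes of Polycomb repressive complex 2 and the p53 pathway (median -0.0016), where *Gdf15* had the largest log2 fold change (0.48, edgeR adjusted p = 0.781), and of 10 factors of imprint maintenance (median 0.081), where *Zfp445*, a partly redundant partner of ZFP57, had the largest log2 fold change (0.37, edgeR adjusted p = 0.768). Of 7 microRNA processing genes, which act on transcripts such as *Mirg*, 0 were called (median 0.081), and *Ago2* had the largest log2 fold change (0.29, edgeR adjusted p = 0.749). Of 3 proteins of the C/D box small nucleolar particle, which package RNAs such as those of *Rian*, 0 were called (median -0.14), and *Fbl* had the largest log2 fold change (-0.19, edgeR adjusted p = 0.759). DESeq2 called 0 genes of these lists and of the flanks too. An unadjusted edgeR p under 0.05 was found for 1 flanking gene, 1 imprinted noncoding RNA, 1 imprint factor and 1 small nucleolar particle gene, and for 0 genes of the other lists.

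Markers of other tissues were read for the makeup of the embryos. Skeletal muscle, liver, erythroid, cartilage and pituitary lists held 8, 7, 6, 5 and 2 tested genes, of which 0 were called by edgeR or DESeq2, with 1 erythroid and 1 pituitary gene at an unadjusted edgeR p under 0.05. In that order 4, 7, 6, 1 and 2 of these genes had a log2 fold change below 0, as 51.7% of all tested genes did. The median log2 fold changes were 0.031, -0.25, -0.20, 0.093 and -0.55. The genes of largest change were *Neb* (log2 fold change 0.68), *Apoa1* (-0.38), *Klf1* (-0.32), *Acan* (0.18) and *Lhx3* (-0.67), with edgeR adjusted p of 0.753, 0.753, 0.744, 0.787 and 0.744. Among neuron markers it was *Map2* (-0.31, edgeR adjusted p = 0.77). Summed liver markers lay between 3706 and 7373 CPM in M-Z+ and between 2775 and 6888 CPM in M-Z- embryos. Of 6 placenta and decidua markers 5 were at 0 counts in every embryo, and the sum of the list was at most 0.0831 CPM.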

How the data were processed

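RNA from 12 whole embryos was analysed, 6 per genotype. The authors deposited 1 table with a raw read count and an FPKM value per gene and embryo. The submitters' processing notes name HISAT2 2.0.4, Trim Galore 0.4.1, Bismark 0.15.0, Bowtie2 2.2.9 and build mm10, with no counting program, strand setting or annotation stated. The deposited FPKM equal the counts scaled by library total and a gene length (largest deviation 0.071% for FPKM of at least 0.01). That length was compared with exon lengths of GENCODE vM1 (1.01 times the span marked as longer). Of 13390 genes with several transcripts it lay within 2% of the sum of distinct exons for 53.4% and of merged exons for 8.4%, so FPKM did not serve to rank genes by level. FPKM served for ranges and ratios across embryos and for the limma alternatives, fitted to log2(FPKM + 0.1) and log2(FPKM + 1). The correlations among members were also repeated on log2(FPKM + 0.1). Bisulfite samples were not used here.

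Counts of 16026 genes passing edgeR's filter were fitted with edgeR 4.0.16 (TMM, quasi-likelihood test, R 4.3.3, Benjamini-Hochberg over all of them). Alternatives used DESeq2 1.42.0, limma 3.58.1, sva 3.50.0, DESeq2 size factors, no filter, a replicate block, the length slope, each embryo left out and, added after seeing the data, 3 embryos left out together. log2 CPM used a prior count of 2. Fits were tested on simulated counts. Correlations used all 720 pairings. Nothing says that embryos of 1 genotype came from separate litters, so p-values measure the spread between these embryos. The members and gene lists were chosen with earlier results of these data known. Genes named are the members, *Dlk1*, *Rtl1*, *Dio3*, *Begain*, genes between *Dlk1* and *Dio3* with at least 10 counts on average, the 5 genes most like each member, and per list up to 2 called genes or else the 1 of largest change. *Zfp57*, *H19*, *Kcnq1ot1*, *Peg13*, *Tubb3*, *Dcx* and *Stmn2* were named outside that rule, after their values were seen. Figures used matplotlib 3.10.9 and Python 3.11.15.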

Additional observations from a re-analysis of the deposited data

Results flagged for a closer look

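Values of the members, of other genes of the region, of ratios and of library measures were read in each genotype for an embryo far from the other 5. Of 34 sets of 6 values 1 was marked, where chance marks about 1 in 20. *Begain* in M-Z+ replicate 5 was at 29 CPM, and the other M-Z+ embryos were between 20.8 and 23.7 CPM.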

How the results depend on the processing

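The 13 genes called by edgeR became 37 with DESeq2, 37 with surrogate variables, 23 with the gene length slope as covariate and 21 with the replicate number as a block. Leaving out each embryo gave 11 to 15. The log2 fold changes of the 3 RNAs stayed positive in all fits. Leaving out each embryo gave 0.67 to 1.22 for *Meg3*, 0.85 to 0.98 for *Rian* and 0.69 to 1.00 for *Mirg*, and with the replicate block they were 0.85, 0.92 and 0.83. No label says that a replicate number marks a shared litter or day. Same-numbered embryos correlated at 0.1, 0.02, 0.3, 0.33, 0.13 and 0.64, and 3 of the 6 correlated best with their own number, a hint of pairing that did not reach a correlation over 0.1 in every pair, so the numbers were not used as pairs. *Dlk1*, *Rtl1*, *Dio3* and *Begain* were called in every fit. The 3 correlations among members in M-Z- embryos passed in all alternatives. After a fit on the length slope, *Meg3* and *Mirg* in M-Z+ embryos also had r = 0.93 (permutation adjusted p = 0.029). In the same setting *Meg3* and *Rian* had r = 0.15 and *Rian* and *Mirg* 0.39 (permutation adjusted p = 0.81 and 0.52). The p-values after this fit permute residuals, so they are approximate and not exact.

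The 4 relations with the length slope were 0 with the slope from genes of 1 to 5 kb, and 0 to 4 when an embryo was left out. Of the relations with neuron markers 1 to 4 passed when an embryo was left out, with 1 passing without M-Z- replicate 3 or 4. Leaving out an embryo leaves 5 in its genotype and fewer pairings. *Mirg* against the slope in M-Z+ embryos changed sign, to 0.053 with genes of 1 to 5 kb and over -0.23 to 0.15 when an embryo was left out, and *Rian* against *Mirg* in M-Z+ embryos ranged from -0.25 to 0.61. The cause of these changes was not tested. The counts of *Rtl1* in M-Z- embryos were too few for a precise fold change, and *Gm26945* varied widely between embryos (coefficient of variation 106% in M-Z+ and 105% in M-Z- embryos).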
